A study of Danio rerio with 6 samples.

Results

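Pax2a, Pax8, Lhx1a, Wt1a and Wt1b are transcription factors of the developing zebrafish kidney, and their transcripts were followed here in injured proximal tubules treated with UPHD25 or vehicle. These 5 genes belong to a set of 6 picked by their Ensembl identifiers, as factors that mark renal progenitors and nephron segments, out of 32520 genes in the count table. The libraries came from GFP-positive pronephros of *Tg(PT:egfp)* larvae, in which a proximal tubule promoter drives GFP. All larvae received gentamicin at 3 days post fertilization (dpf) to cause acute kidney injury (gent-AKI). In gent-AKI+UPHD25 the larvae were then kept from 2 days post injection (5 dpf) for 24 h in 1 μM UPHD25, an esterified prodrug of the histone deacetylase inhibitor PTBA, with 1% DMSO. In gent-AKI+DMSO they were kept in 1% DMSO alone for the same 24 h. Each library was a pool of 100 larvae dissected by hand after enzyme treatment, with 3 pools per group. No uninjured library was analysed here, so the levels below cannot be set against a healthy tubule.

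The pronephros is the working kidney of the larva, a pair of nephrons that share a midline glomerulus and run as proximal and distal tubules to the cloaca. Pax2a and Pax8 are related paired-box proteins that specify the renal lineage in the intermediate mesoderm. Lhx1a is a LIM homeodomain protein of the same progenitor field. Wt1a and Wt1b are zinc-finger proteins of the podocyte, the filtering cell of the glomerulus. Pax2a is switched off in mature proximal tubule and is known to return in injured tubule cells, which is why it is read as a sign of dedifferentiation. Pax2a and Lhx1a also have well-known roles in the developing brain and spinal cord, so neural genes are given beside them.

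Reads counted on genes ranged from 10781071 to 23328700 per library in gent-AKI+UPHD25 and from 11851159 to 30750026 in gent-AKI+DMSO. UPHD25 replicate 3 stood apart from the rest, with a mean correlation of 0.919 with the other libraries across genes, against 0.939 to 0.953 for the others. Genes of proximal tubule transporters and endocytic receptors were read in every library, but some listed ones had few or no reads in replicate 2 pools. The proximal tubule marker *amn* had 77, 6 and 43 reads in UPHD25 replicates 1 to 3 and 111, 4 and 28 in DMSO replicates 1 to 3. *slc20a1* (ENSDARG00000010641), a phosphate transporter gene, was at 851 to 902 CPM (counts scaled to a common library size) in gent-AKI+UPHD25 and 741 to 993 CPM in gent-AKI+DMSO. *lrp2*, which encodes the receptor megalin, was at 85.8 to 108 CPM in gent-AKI+UPHD25 and 71.0 to 117 CPM in gent-AKI+DMSO. Other tissues were also present in the dissected material. Skeletal muscle markers summed to 7340 to 13600 CPM in gent-AKI+UPHD25 and 14800 to 17800 CPM in gent-AKI+DMSO, and exocrine pancreas markers to 2300 to 7100 CPM in gent-AKI+UPHD25 and 7950 to 12600 CPM in gent-AKI+DMSO. In such bulk samples, fewer cells of a type and less RNA per cell cannot be told apart.

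Across the 5 genes, *lhx1a* and *pax2a* were higher in every UPHD25 library than in every DMSO library, while *pax8*, *wt1a* and *wt1b* overlapped between the groups. No member passed the threshold on the adjusted p-value, and neither did any other gene (0 of 17497 tested, 0% called, with 2186 genes or 12.5% at an unadjusted p under 0.05). These tests were quasi-likelihood tests in edgeR, with p-values adjusted by Benjamini-Hochberg over all genes tested. The lowest UPHD25 library exceeded the highest DMSO library for 2 of the 5 tested members, against 10.4% of all tested genes. The opposite order was found for 0 of the 5, against 7.46% of all tested genes. With 5 genes, these counts are only a description.

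**Figure D1:**
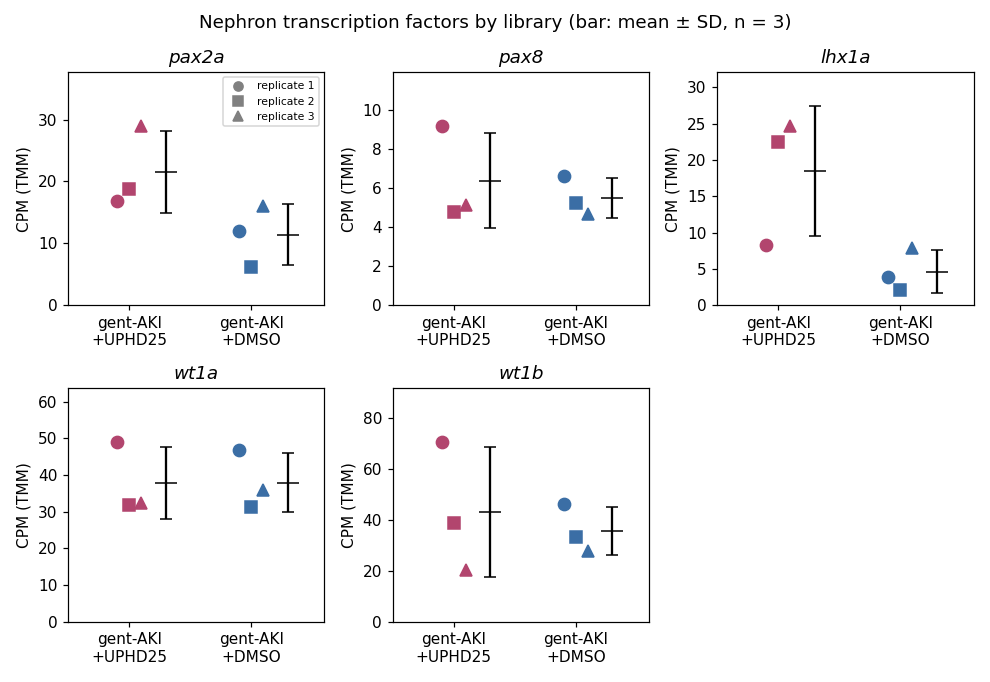
Level of each of the 5 transcription factor genes in CPM (y axis, scaled by TMM, each panel with its own range) for the 3 gent-AKI+UPHD25 pools at the left of a panel and the 3 gent-AKI+DMSO pools at the right. Symbols mark the replicate number and the black bar is the mean ± SD (n = 3). The groups separate for *pax2a* and *lhx1a* and overlap for *pax8*, *wt1a* and *wt1b*.

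*lhx1a* (ENSDARG00000014018) showed the largest log2 fold change among the 5 tested members. Its level was 8.28, 22.5 and 24.7 CPM in UPHD25 replicates 1, 2 and 3, against 3.84, 2.15 and 7.91 CPM in DMSO replicates 1, 2 and 3. The groups did not overlap, but the gap was narrow, since UPHD25 replicate 1 lay just above DMSO replicate 3. The mean was 18.5 ± 8.92 CPM in gent-AKI+UPHD25 and 4.63 ± 2.96 CPM in gent-AKI+DMSO (SD, n = 3 each). The log2 fold change was 1.99 with a standard error of 0.55 and a 95% interval of 0.72 to 3.27, or 3.98-fold, higher than 98.8% of all tested genes. Its edgeR adjusted p was 0.221, from an unadjusted p of 0.00676. The two-sided exact permutation test of CPM gave p = 0.1, the smallest that 3 libraries against 3 allow.

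DESeq2's Wald test, used as an alternative, did call *lhx1a*, with a log2 fold change of 1.94 (standard error 0.53) and an adjusted p of 0.0147. It called 639 of the 18479 genes to which it gave an adjusted p, or 3.46%. DESeq2 differs from the edgeR fit in test, scaling and gene filter together. Changed alone in edgeR, the size factors of DESeq2 gave *lhx1a* an adjusted p of 0.226, and no count filter gave 0.151. Neither change alone made the call in edgeR, and the part of the test itself or of the combination was not tested. The *lhx1a* reads behind these levels numbered 187, 234 and 368 in the UPHD25 libraries and 115, 23 and 95 in the DMSO libraries, in replicate order. The 23 reads of DMSO replicate 2, in a library of 11851159 counts, gave the lowest level. Without that library the edgeR log2 fold change was 1.66 (adjusted p = 0.580), and without UPHD25 replicate 3 it was 1.71 (adjusted p = 0.385). Over all 13 alternatives the log2 fold change lay between 1.66 and 2.58 and the adjusted p between 0.0147 and 0.580.

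*pax2a* (ENSDARG00000028148), the marker of dedifferentiated tubule cells, had a smaller difference of the same sign. Its level was 16.8, 18.8 and 29.0 CPM in UPHD25 replicates 1 to 3, against 12.0, 6.17 and 16.0 CPM in DMSO replicates 1 to 3. The lowest UPHD25 pool thus exceeded the highest DMSO pool by under 1 CPM, and UPHD25 replicate 3 was well above the rest. The mean was 21.5 ± 6.54 CPM in gent-AKI+UPHD25 and 11.4 ± 4.93 CPM in gent-AKI+DMSO (SD, n = 3 each). The log2 fold change was 0.92 with a standard error of 0.37 and a 95% interval of 0.07 to 1.77, or 1.89-fold. It was higher than 91.2% of all tested genes. Its edgeR adjusted p was 0.362, from an unadjusted p of 0.0376, and DESeq2 gave 0.269. The two-sided exact permutation test again gave its smallest value, p = 0.1. Without UPHD25 replicate 3 the log2 fold change of *pax2a* was 0.64, and without DMSO replicate 2 it was 0.62. Of the 5 tested members, *pax2a* and *lhx1a* had an unadjusted edgeR p under 0.05 with a higher level, which 9.09% of all tested genes had. No member (0 of 5) had one with a lower level, which 3.41% of all tested genes had.

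*pax8* (ENSDARG00000015879), which shares the paired domain with *pax2a*, was at like levels in both groups. Its level was 9.21, 4.81 and 5.17 CPM in UPHD25 replicates 1 to 3 and 6.62, 5.24 and 4.66 CPM in DMSO replicates 1 to 3. The ranges overlapped and only UPHD25 replicate 1 was above all DMSO pools. The log2 fold change was 0.22 with a 95% interval of -0.55 to 0.99 (edgeR adjusted p = 0.872). That interval includes the 0.92 found for *pax2a*, so a change of that size in *pax8* could not be told from none.

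The podocyte factors overlapped between the groups. *wt1a* (ENSDARG00000031420) was at 49.0, 31.9 and 32.4 CPM in UPHD25 replicates 1 to 3 and at 46.7, 31.2 and 35.9 CPM in DMSO replicates 1 to 3. Replicate 1 was the highest pool in both groups, and the other pools lay close together. The log2 fold change of *wt1a* was -0.01 with a 95% interval of -0.57 to 0.55 (edgeR adjusted p = 0.996), so a 2-fold change in either direction lay outside the interval. With the difference so near 0 its sign turned with the scaling, and it was 0.10 on library totals, which moved the median of all genes to 0.15 from 0.03.

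*wt1b* (ENSDARG00000007990), the paralogue of *wt1a*, was at 70.6, 38.6 and 20.1 CPM in UPHD25 replicates 1 to 3 and at 46.1, 33.3 and 27.6 CPM in DMSO replicates 1 to 3. Its UPHD25 pools held both the highest and the lowest level of all 6. The mean was 43.1 ± 25.5 CPM in gent-AKI+UPHD25 and 35.7 ± 9.47 CPM in gent-AKI+DMSO (SD, n = 3 each). The log2 fold change was 0.27 with a 95% interval of -0.70 to 1.25 (edgeR adjusted p = 0.875), and it was -0.30 without UPHD25 replicate 1.

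*lhx1b* (ENSDARG00000007944), the paralogue of *lhx1a*, was listed at 0 in all 6 libraries. A count of 0 allows up to 3 reads, which stand for 0.133 to 0.289 CPM in the UPHD25 libraries and 0.10 to 0.281 CPM in the DMSO libraries. Such limits hold for counting error alone, as PCR copies of a molecule are counted like separate ones. In all, 6439 of the 32520 genes were at 0 in every library. They included *ift88*, a gene of cilium assembly. The gene that the names table lists as *hnf4a*, a factor of proximal tubule, had at most 1 read in any library. How reads that align to several places were counted is not given in the sources used here, so a 0 is reported as a listed value and not as absence of the transcript.

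A *pax2* and an *lhx* paralogue were also higher in every UPHD25 pool. The other gene named *pax2* in the table (ENSDARG00000032578) was at 1.33, 2.60 and 4.10 CPM in UPHD25 replicates 1 to 3, against 0.735, 0.936 and 0.749 CPM in DMSO replicates 1 to 3. The groups did not overlap, and the log2 fold change was 1.72 with a standard error of 0.49 (edgeR adjusted p = 0.227). *lhx5*, a LIM homeodomain gene known from the forebrain and spinal cord, was at 1.59, 2.98 and 5.17 CPM in UPHD25 replicates 1 to 3, against 0.835, 0.561 and 1.17 CPM in DMSO replicates 1 to 3. It had a log2 fold change of 1.91 with a standard error of 0.53 (edgeR adjusted p = 0.221, and 0.0398 by DESeq2). *pax5*, a gene of the midbrain-hindbrain boundary and the inner ear, was too low for the test. It had 3, 21 and 33 reads in UPHD25 replicates 1 to 3 and 3, 4 and 6 reads in DMSO replicates 1 to 3. For *pax5* too, UPHD25 replicates 2 and 3 were the high libraries.

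**Figure D2:**
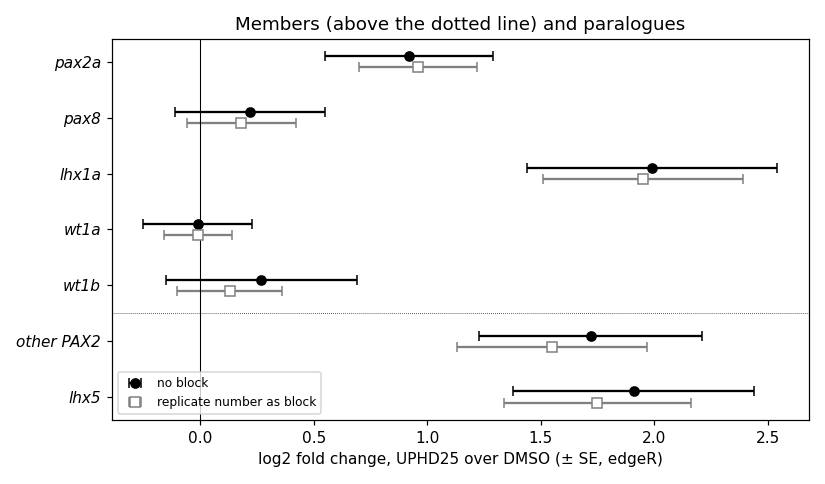
Log2 fold change of UPHD25 over DMSO (x axis, edgeR, bars are the standard error) for the 5 members, above the dotted line, and for 2 paralogues below it, with black circles for the fit on group alone and open squares for the fit blocked on replicate number. On group alone, *lhx1a*, *lhx5* and the other *pax2* gene lie between 1.72 and 1.99 and *pax2a* at 0.92, and the remaining genes lie closer to 0.

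Deviations of same-numbered libraries from their group means correlated at 0.49, 0.29 and 0.21 for replicates 1 to 3. Each member was therefore also compared within pairs of same-numbered pools, though the tie was weak in replicates 2 and 3. The UPHD25 to DMSO ratio of *lhx1a* CPM was 2.15, 10.5 and 3.12 in pairs 1, 2 and 3. For *pax2a* it was 1.40, 3.05 and 1.81. Both genes were thus higher after UPHD25 in 3 of 3 pairs, which any pairing gives for groups that do not overlap. The ratio was highest in pair 2, where the DMSO pool had the lowest level. *pax8* gave ratios of 1.39, 0.918 and 1.11 and *wt1a* gave 1.05, 1.02 and 0.902. *wt1b* gave 1.53, 1.16 and 0.729, which lay on both sides of 1. With the replicate number as a block in edgeR, the adjusted p was 0.139 for *lhx1a* and 0.167 for *pax2a*, which left both on the same side of the threshold.

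**Figure D3:**
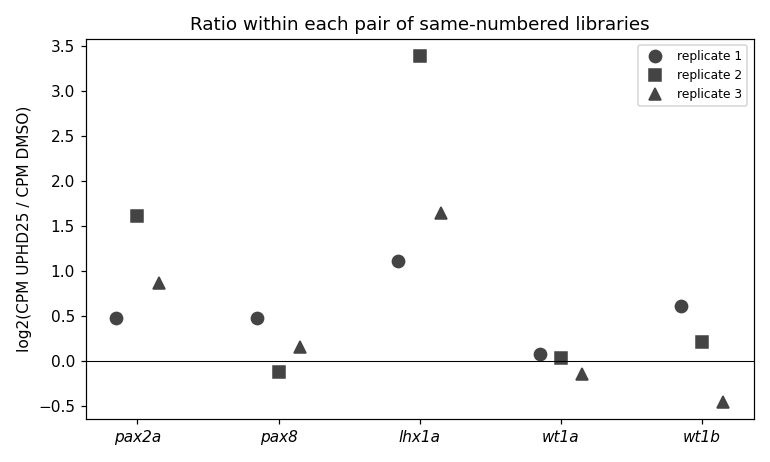
Log2 ratio of CPM in the UPHD25 pool over CPM in the DMSO pool of the same replicate number (y axis) for the 5 members (x axis), with 1 symbol per pair. All 3 pairs lie above 0 for *pax2a* and *lhx1a*, and the pairs lie on both sides of 0 for *pax8*, *wt1a* and *wt1b*.

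The members fell into a pair and a trio by their course over the 6 libraries. The log2 CPM of *pax2a* and *lhx1a* followed each other with a Pearson's r of 0.93, and that of *pax8* and *wt1a* with 0.87, *pax8* and *wt1b* with 0.83, and *wt1a* and *wt1b* with 0.77. Between the pair and the trio r lay between -0.31 and 0.01. These values are descriptions over 6 libraries that share 2 treatments and 3 replicate numbers, and carry no test. In *pax8*, *wt1a* and *wt1b* the replicate 1 pools were the highest of each group, whereas *pax2a* and *lhx1a* peaked in UPHD25 replicate 3.

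Ratios between members within a library do not depend on the scaling. The log2 ratio of *lhx1a* to *wt1a* counts was -2.57, -0.50 and -0.39 in UPHD25 replicates 1 to 3 and -3.60, -3.86 and -2.18 in DMSO replicates 1 to 3. The libraries overlapped in that UPHD25 replicate 1 lay below DMSO replicate 3. The mean was 2.06 higher in gent-AKI+UPHD25 on the log2 scale (two-sided exact permutation test, p = 0.2, and 0.333 after adjustment over the 10 pairs of members compared). That test takes no account of the replicate numbers, and within same-numbered pools the difference was 1.04, 3.36 and 1.79, higher after UPHD25 in 3 of 3. The log2 ratio of *pax8* to *wt1a* was -2.41, -2.73 and -2.65 in UPHD25 replicates 1 to 3 and -2.82, -2.58 and -2.94 in DMSO replicates 1 to 3, a mean difference of 0.18. That of *pax2a* to *pax8* was 0.87, 1.97 and 2.49 in UPHD25 replicates 1 to 3 and 0.86, 0.24 and 1.78 in DMSO replicates 1 to 3, a mean difference of 0.82 (exact permutation p = 0.2, adjusted 0.333). Within same-numbered pools it differed by 0.01, 1.73 and 0.71.

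Neural genes were higher in the libraries where *lhx1a* and *pax2a* were higher. The neural markers, 18 genes of neurons, synapses, transmitter synthesis and glia with *lhx5* among them, summed to 661, 1260 and 1560 CPM in UPHD25 replicates 1 to 3, against 492, 520 and 619 CPM in DMSO replicates 1 to 3. Of these genes 17 were tested and all 17 had a log2 fold change above 0, with a median of 1.11, where the median of all genes was 0.03 and 52.7% of them were above 0. Unadjusted edgeR p-values under 0.05 with a higher level were found for 14 of the 17, where all tested genes gave 9.09%. None had an adjusted p under 0.05 in edgeR (0 of 17), and 6 of 17 did in DESeq2, against 3.46% of all genes. The list was chosen with earlier results of these data known, so these counts are only a description.

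Among the most highly counted neural genes, *elavl3*, an RNA-binding protein gene of neurons, was at 54.1, 235 and 181 CPM in UPHD25 replicates 1 to 3 and at 47.2, 84.0 and 87.8 CPM in DMSO replicates 1 to 3. *syt1*, a gene of synaptic vesicles, was at 87.7, 113 and 209 CPM in UPHD25 replicates 1 to 3 and at 53.6, 70.6 and 70.7 CPM in DMSO replicates 1 to 3. UPHD25 replicates 2 and 3 were the high libraries for both, as they were for *lhx1a*. *gad1* (ENSDARG00000027419), a gene of GABA synthesis singled out after its values were seen, had a log2 fold change of 2.23 (standard error 0.41, edgeR adjusted p = 0.207).

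**Figure D4:**
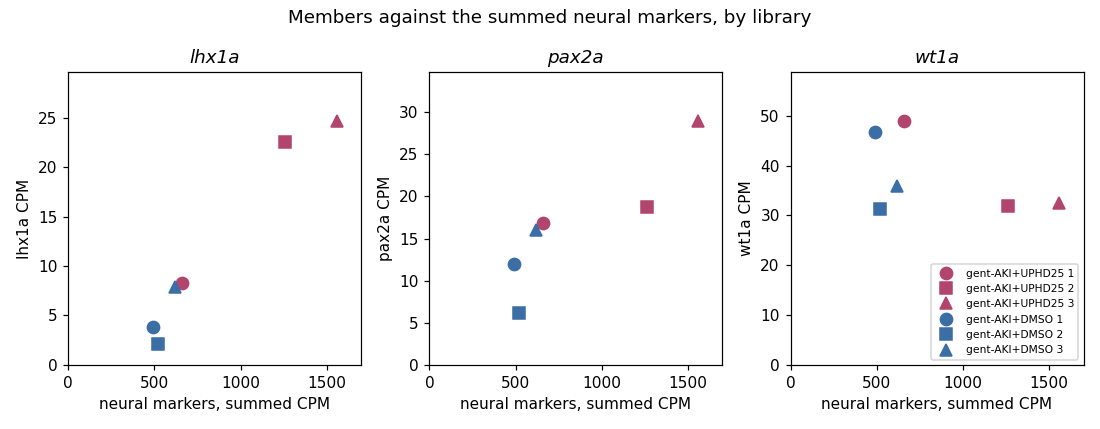
CPM of *lhx1a*, *pax2a* and *wt1a* (y axes) against the summed CPM of the 18 neural marker genes (x axis) in each of the 6 libraries, in red for gent-AKI+UPHD25 and blue for gent-AKI+DMSO, with the symbol giving the replicate number. UPHD25 replicates 2 and 3, at 1260 and 1560 CPM of neural markers, also hold the highest *lhx1a* and *pax2a*, while *wt1a* is not higher there.

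The members were also expressed per 1000 reads on the neural markers of the same library, with *lhx5* left out of the markers. This scale was chosen after the values were seen. Since the neural sums were higher in gent-AKI+UPHD25, it lowered every gene, with a median log2 ratio over all tested genes of -0.89 in place of 0.03. A loss of difference on it is therefore no test of a gene, and the values are given only as a description. *pax2a* then stood at 25.4, 15.0 and 18.7 in UPHD25 replicates 1 to 3 and at 24.4, 11.9 and 25.9 in DMSO replicates 1 to 3. The groups overlapped, and the log2 ratio of the means was -0.07, above the -0.89 of all genes. *lhx1a* stood at 12.6, 17.9 and 15.9 in UPHD25 replicates 1 to 3 and at 7.83, 4.14 and 12.8 in DMSO replicates 1 to 3. It was higher after UPHD25 in 3 of 3 same-numbered pairs, although UPHD25 replicate 1 lay just below DMSO replicate 3, and the log2 ratio of the means was 0.90. The log2 ratios were -0.56 for *pax8*, -0.82 for *wt1a* and -0.43 for *wt1b*, and 0.80 for *lhx5* and 0.58 for the other *pax2* gene. Whether the *lhx1a* and *pax2a* reads came from tubule cells or from neural tissue was not tested, since the counts do not tell cells apart.

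Markers of other sites of the members had medians nearer to 0 or below it. Inner ear markers, a site of *pax2a*, *pax8* and *pax5*, had a median log2 fold change of -0.01 over 4 tested genes. Thyroid markers, a site of *pax2a* and *pax8*, were tested for 2 genes. Thyroglobulin was at -1.40 (standard error 0.43, edgeR adjusted p = 0.243), with groups that overlapped. *duox* was at -0.07 (standard error 0.33, edgeR adjusted p = 0.967). Interrenal markers, genes of the steroid gland beside the glomerulus, had a median of 0.11 over 6 genes.

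Podocyte genes were described beside *wt1a* and *wt1b*. Of 18 podocyte marker genes 17 were tested, with a median log2 fold change of 0.21 and 0 past the threshold in edgeR. At an unadjusted p under 0.05 there were 3 of 17 higher and 1 lower, against 9.09% and 3.41% of all tested genes, and DESeq2 called 2 of 17, against 3.46%. *nphs1*, which encodes the slit diaphragm protein nephrin, was at 17.1, 6.83 and 13.4 CPM in UPHD25 replicates 1 to 3 and at 19.7, 18.2 and 12.1 CPM in DMSO replicates 1 to 3. Its groups overlapped, as those of *wt1a* and *wt1b* did.

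The podocyte genes with the lowest unadjusted p-values did not share a direction. *ptpro*, a receptor phosphatase gene of the podocyte that neurons also express, had a log2 fold change of 1.09 (standard error 0.23, edgeR adjusted p = 0.207, and 0.00809 by DESeq2). The *kirrel1* gene ENSDARG00000056998, of the nephrin family, was at 1.08 (adjusted p = 0.212, and 0.0422 by DESeq2). *plce1*, a phospholipase gene, was at -1.12 (adjusted p = 0.248), with 108, 154 and 53.6 CPM in UPHD25 replicates 1 to 3 and 210, 221 and 254 CPM in DMSO replicates 1 to 3.

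The other transcription factors of the nephron lay on both sides of 0. Of 47 genes matched to the list 38 were tested, with a median log2 fold change of 0.19 and 24 above 0, and 0 passed the threshold in edgeR. At an unadjusted p under 0.05 there were 5 of 38 higher and 3 lower genes, against 9.09% and 3.41% of all tested genes, and DESeq2 called 2 of 38, against 3.46%. Groups did not overlap for 9 of the 38 (7 with UPHD25 above and 2 below), where 17.8% of all tested genes had this.

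Of the higher genes, *tfap2b*, a factor of distal tubule differentiation that is also expressed in the nervous system, was at 6.38, 6.83 and 21.2 CPM in UPHD25 replicates 1 to 3, against 2.41, 2.81 and 3.91 CPM in DMSO replicates 1 to 3. Its log2 fold change was 1.93 (standard error 0.52, edgeR adjusted p = 0.214, and 0.0145 by DESeq2). The *irx1* genes, Iroquois factors of the tubule and the brain, were at 0.89 for ENSDARG00000101831 and 1.22 for ENSDARG00000056594 (adjusted p = 0.272 and 0.258). *tcf21*, a gene of podocytes and stroma, was at 1.49 (adjusted p = 0.255) but at only 1.59, 0.866 and 0.940 CPM in UPHD25 replicates 1 to 3 and 0.535, 0.374 and 0.250 CPM in DMSO replicates 1 to 3.

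Of the lower genes, *eya1*, a transcriptional co-activator gene of renal progenitors, was at 17.9, 20.3 and 19.3 CPM in UPHD25 replicates 1 to 3, against 36.0, 28.9 and 32.0 CPM in DMSO replicates 1 to 3. The pools agreed closely within each group and did not overlap, with a log2 fold change of -0.76 (standard error 0.18, edgeR adjusted p = 0.207, and 0.0177 by DESeq2). Eya1 also acts in muscle, and all 7 skeletal muscle markers tested had a log2 fold change under 0, with a median of -0.62. The part of muscle in these values was not tested. *mecom*, a factor of the distal tubule, was at -0.53 (adjusted p = 0.383).

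Named factors with a known part in renal progenitors and proximal tubule had log2 fold changes from -0.02 to 0.80, none past the threshold. *osr1*, needed for pronephric progenitors, was at 0.27 on the log2 scale (standard error 0.23), *hnf4b* at 0.00 (0.22), *hnf4g* at 0.08 (0.35), *ppargc1a* at -0.02 (0.18) and the *irx3* gene ENSDARG00000101076 at 0.01 (0.17). The other *irx3* gene (ENSDARG00000031138) was at 4.69, 4.23 and 4.23 CPM in UPHD25 replicates 1 to 3, against 3.51, 2.34 and 1.83 CPM in DMSO replicates 1 to 3. Its groups did not overlap, and its log2 fold change was 0.75 (standard error 0.33, edgeR adjusted p = 0.409). *sall4*, a progenitor gene, was at 167, 201 and 70.6 CPM in UPHD25 replicates 1 to 3 and at 88.7, 55.1 and 109 CPM in DMSO replicates 1 to 3. UPHD25 replicate 3 lay among the DMSO pools, unlike for *lhx1a* and *pax2a*, and the log2 fold change was 0.80 (edgeR adjusted p = 0.484).

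Genes that act with or under these factors gave no call either. Of 25 genes matched 22 were tested, with a median log2 fold change of 0.06, 0 past the edgeR threshold and 1 at an unadjusted p under 0.05, the *eya1* gene already given. DESeq2 called that gene alone. *ldb1* (ENSDARG00000010137), which encodes the adaptor that LIM homeodomain proteins such as Lhx1a bind, was at 87.4, 110 and 119 CPM in UPHD25 replicates 1 to 3 and at 87.1, 73.6 and 75.5 CPM in DMSO replicates 1 to 3. All UPHD25 pools were above the DMSO pools, with UPHD25 replicate 1 just above DMSO replicate 1, an order that 10.4% of all tested genes had. On the log2 scale this gene differed by 0.42 between the groups (standard error 0.18, edgeR adjusted p = 0.408). A second *ldb1* gene (ENSDARG00000103158) overlapped between the groups and differed by only 0.05 (edgeR adjusted p = 0.96). Thus the first *ldb1* gene, like *lhx1a*, was higher in every UPHD25 pool, and the second was not. *pkd2*, a polycystin gene of the tubule cilium, was at -0.39 (edgeR adjusted p = 0.455), with every UPHD25 pool below every DMSO pool. Of the 22 tested genes of this list, 4 had all UPHD25 pools above the DMSO pools and 2 had them below. The shares of all tested genes were 10.4% and 7.46%. *cdh17*, the nephric cadherin, was at 125, 59.3 and 114 CPM in UPHD25 replicates 1 to 3 and at 141, 73.5 and 149 CPM in DMSO replicates 1 to 3. Both replicate 2 pools were low in *cdh17*, and the log2 fold change was -0.28 (adjusted p = 0.835).

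Summed markers of the tubule were at like levels in both groups. The 18 tested proximal tubule markers had a median log2 fold change of 0.03. All 22 matched genes of that list summed to 1520, 1300 and 1510 CPM in UPHD25 replicates 1 to 3. In DMSO replicates 1 to 3 they summed to 1440, 1240 and 1570 CPM. Of this, *slc20a1* (ENSDARG00000010641) alone gave 854, 851 and 902 CPM in the UPHD25 pools and 741, 745 and 993 CPM in the DMSO pools. Some other markers, unlike *trpm7*, were low in both replicate 2 pools. *slc26a1* was at 26, 4.23 and 19 CPM in UPHD25 replicates 1 to 3 and at 26.8, 3.09 and 17.1 CPM in DMSO replicates 1 to 3. The 12 tested distal tubule and duct markers had a median of 0.22, and the 7 tested markers of the whole nephric tubule a median of 0.01. The proximal tubule sums overlapped between the groups, whereas the neural sums were higher in every UPHD25 pool. Sums of skeletal muscle, exocrine pancreas and leukocyte markers did not overlap either, and were lower in every UPHD25 pool. Markers of other tissues had medians on both sides of 0, at -1.18 for exocrine pancreas (7 genes tested), -0.88 for leukocytes (5 genes), -0.80 for erythroid cells (3 genes), -0.59 for liver (7 genes), -0.07 for mesothelium and stroma (8 genes), 0.09 for endothelium (6 genes), 0.17 for multiciliated cells (6 genes) and 0.56 for epidermis (5 genes). None of these genes passed the edgeR threshold.

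**Figure D5:**
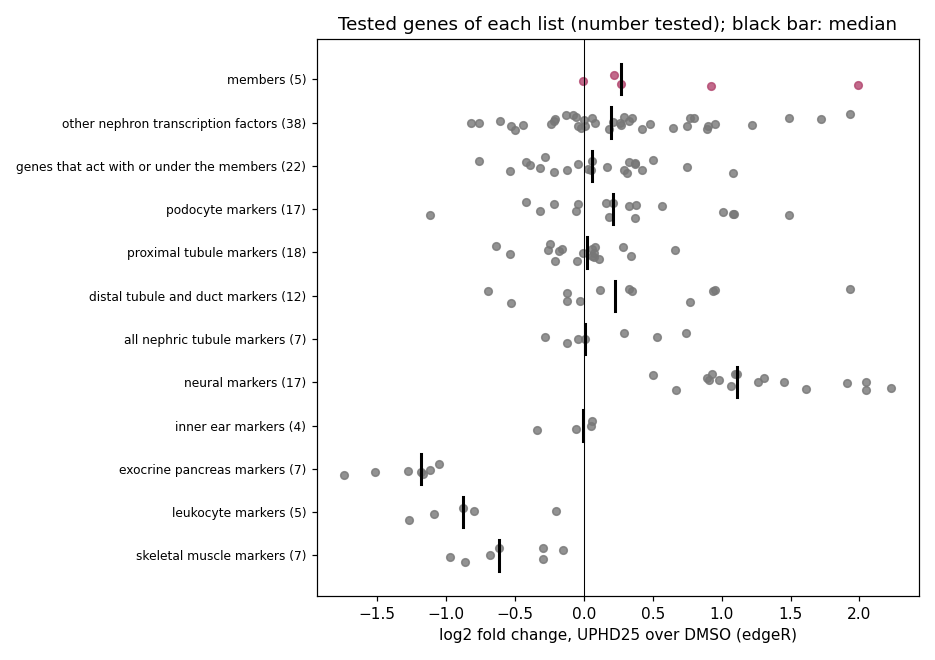
Log2 fold change of UPHD25 over DMSO (x axis, edgeR) of each tested gene, 1 point per gene, in the members (red, top) and in 11 lists of kidney and other genes (grey), with the number tested in brackets and the median as a black bar. The medians of the kidney lists lie between 0.01 and 0.22, that of the neural markers at 1.11 and that of the exocrine pancreas markers at -1.18.

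For each member the named genes with the most similar log2 CPM over the 6 libraries were listed as a description. With 17497 genes and 6 libraries, high values are found for any gene. *pax2a* was followed most closely by *pcp4*, a calmodulin-binding protein gene of neurons (r = 0.994), and *erich1* (r = 0.992). *lhx1a* was followed by *sp4*, a zinc-finger factor gene enriched in neurons (r = 0.996), and *c1qtnf4* (r = 0.993). *pax8* was followed by *slc27a2a*, a fatty acid transporter gene (r = 0.991), and *pcbd1* (r = 0.990). *wt1a* was followed by *gmpr2* (r = 0.992) and *slc2a12*, a glucose transporter gene (r = 0.990). *wt1b* was followed by the *junb* genes ENSDARG00000104773 (r = 0.997) and ENSDARG00000074378 (r = 0.996), which encode AP-1 subunits.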

How the data were processed

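The authors aligned paired-end reads to danRer11 with HISAT2 2.1.0 and counted them per gene with featureCounts, as the submitters' processing notes state. They deposited raw counts, with 0 columns left unused here. The annotation release and strand option are not given in the sources used here. Members were taken by Ensembl identifier, and 1 of the 6 is not reported here. Other genes were matched by symbol to a table naming 29201 genes, mostly by the symbol of the orthologue. Of 226 listed symbols 26 were not matched, and where the table gives no paralogue letter all genes of that name were taken. The members and lists were chosen with earlier results of these data known. Named beside the members are paralogues, listed genes among the highest in mean CPM, listed genes past the threshold, and the 2 genes nearest in log2 CPM; listed genes with a low unadjusted p or a known tie to a member were added after their values were seen.

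The groups were compared by edgeR 4.0.16 in R 4.3.3, with TMM scaling, filterByExpr (minimum count 10, minimum total 15) and glmQLFit and glmQLFTest on group alone. P-values were two-sided and adjusted over 17497 genes at 0.05. Intervals are 95%. CPM were computed on TMM-scaled library sizes, and log2 CPM with a prior count of 2. A gene at 3 counts stood at 0.10 to 0.289 CPM. Labels number replicates 1 to 3 in both groups, and deviations of same-numbered libraries correlated at 0.49, 0.29 and 0.21. P-values set the difference between groups against the spread between pools, and those of the main fit take no account of the replicate numbers. Alternatives were 3 other scalings (upper quartile, library totals and the size factors of DESeq2), a Wald test in DESeq2 1.42.0, no count filter or a minimum of 10 counts per library, a replicate block and each library left out. Both tests were first run on simulated data.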

Additional observations from a re-analysis of the deposited data

How the results depend on the processing

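Of 65 alternative fits of the members' log2 fold changes, 56 kept the direction and the side of the threshold, 8 reversed and 1 passed the threshold. DESeq2's Wald test called 639 of 18479 genes (3.46%) where edgeR called 0, with *lhx1a* among them at 1.94. It called 2 of 38 other nephron transcription factors, 1 of 23 genes acting with or under the members and 2 of 17 podocyte markers. Of the distal tubule and duct markers it called 1 of 12, and of the neural markers 6 of 17. *eya1* and *tfap2b* stand in a pair of these lists each, so the listed genes called were 10. In edgeR, the size factors of DESeq2 alone and no count filter alone each left 0 genes past the threshold. The part of the test itself or of the combination was not tested. The replicate block changed no call and gave log2 fold changes of 1.95 for *lhx1a* and 0.96 for *pax2a*, with 0 genes past the threshold. The reversals were of *wt1a*, *pax8* and *wt1b*, none of them past the threshold. *wt1a* was at 0.10 on library totals, 0.02 with upper quartile scaling and 0.01 with a minimum of 10 counts per library, and its ratio of mean CPM at 0.10 and 0.02 on the log2 scale. Leaving out each library in turn gave -0.25 to 0.15 for *wt1a*, -0.16 to 0.38 for *pax8* and -0.30 to 0.62 for *wt1b*, and -0.24 to 0.16, -0.14 to 0.38 and -0.28 to 0.62 for their log2 ratios of mean CPM. It gave 0.62 to 1.22 for *pax2a*, 1.66 to 2.58 for *lhx1a* and 0 to 1 genes past the threshold, the 1 gene without UPHD25 replicate 2. Per neural marker reads, a scale chosen after seeing the data, the log2 ratios of means were -0.07 for *pax2a*, -0.56 for *pax8* and -0.43 for *wt1b*, on a scale that lowered all tested genes, with a median shift of -0.93 (log2), and so tests none of them. Of the genes at an unadjusted p under 0.05, 72.7% were higher with TMM and 85.1% on library totals. *pax5* had too few reads for the test, and *lhx1b* was listed at 0, the cause of which was not tested.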
